A study of Mus musculus with 24 samples.

Results

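Myosin heavy chains are the motor subunits of the thick filament, and the isoform a muscle fiber expresses is what classes it as slow or fast. The 10 heavy chain genes described here are the rows of the count table whose first symbol is Myh4, Myh1, Myh2, Myh7, Myh7b, Myh6, Myh3, Myh8, Myh9 or Myh14, 10 of 24537 genes, and all 10 passed the filter on low counts in every fit. In adult mouse limb muscle, slow type I fibers use Myh7 and the fast fibers use Myh2 (type IIa), Myh1 (type IIx) or Myh4 (type IIb), in order of rising contraction speed. Fiber type is set in development and kept in the adult by nerve activity and by transcription factors such as Sox6 and the NFAT family, and a fiber can change its heavy chain when nerve input, load or disease changes. Myh6 is the alpha chain of the heart, Myh7b is a relative of the slow chain at a locus of its own, Myh3 and Myh8 are the embryonic and perinatal chains that limb muscle loses after birth and makes again in regenerating fibers, and Myh9 and Myh14 are non-muscle chains that drive cell shape and movement. The annotation of Myh7b lists Myh14 among its synonyms, and the rows were told apart by their first symbol.

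The data are RNA-seq libraries of whole extensor digitorum longus (EDL, a fast muscle) and soleus (SOL, a slow muscle) of 2-month-old mice kept on regular chow. The genotypes compared were Acta1-Cre+/4Fhet (Cre+) and Acta1-Cre-/4Fhet (Cre-). Mice of both genotypes carried the doxycycline-inducible cassette of the reprogramming factors Oct4, Sox2, Klf4 and c-Myc (OSKM, the 4F cassette) and the rtTA transactivator behind a LoxP-STOP-LoxP block, and all of them drank water with 1 mg/ml doxycycline (Dox) for 2.5 days, 5.5 days or 8.5 days. Cre was driven by the skeletal actin promoter, so that rtTA, and with it OSKM, was limited to myofibers of Cre+ mice, while the RNA came from all cells of the muscle. Each of the 12 groups of muscle, genotype and day held 2 libraries, 24 in all, which the study describes as independent biological samples. Because the RNA is that of whole muscle, fewer fibers of a type and less heavy chain RNA per fiber cannot be told apart.

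The libraries held 36088781 to 54679082 counts in genes, and the 10 heavy chains took 2.30% to 6.11% of them. Nearly all of these counts were of Myh4, Myh1, Myh2 and Myh7, for which counting error was generally small beside the spread between replicates. Low members had far fewer counts, such as 221 for Myh8 in a Cre+ EDL library of 2.5 days, and for them this does not hold in every group. Oct4 (Pou5f1), the check of induction, was at 0.0418 FPKM in Cre- and 44.0 FPKM in Cre+ EDL muscles at 2.5 days and at 0.0757 and 66.9 FPKM at 8.5 days, where FPKM is the count divided by the exon length and the library's total count, scaled to kilobases and to counts per 1e+06. In Cre+ SOL muscles Oct4 was lower, at 7.32 FPKM at 2.5 days and 9.21 FPKM at 8.5 days. Klf4 differed little between the genotypes in SOL. Its mean was 14.1 FPKM in Cre- and 16.6 FPKM in Cre+ at 2.5 days, and 17.7 FPKM in each genotype at 8.5 days. The 5.5-day libraries stood apart, with Oct4 at 1.02 and 27.7 FPKM in the replicates of Cre+ EDL and at 0.0785 and 0.387 FPKM in Cre+ SOL. The study's methods removed libraries without OSKM expression from later steps, without naming them, and here all values of 5.5 days come from a separate fit of all 24 libraries. The Cre- muscles of 8.5 days held more liver transcripts (Alb, Apoa1 and others) than any other library, with a sum of 9.28 to 11.3 CPM (the count as a share of the library's total, scaled in the same way) in EDL and 27.5 to 153.7 CPM in SOL against 1.14 to 1.83 CPM in the Cre+ muscles of that day.

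Of the 10 genes, 5 lie side by side on the plus strand of chromosome 11, in the order Myh3, Myh2, Myh1, Myh4 and Myh8, within 230334 bases from 67078300 to 67308633 (GRCm38, the build of the files). Myh6 (54941921 to 54966607) and Myh7 (54970688 to 54994549) are neighbours on the minus strand of chromosome 14, within 52629 bases. Myh7b is on chromosome 2 (155611243 to 155634307), Myh9 on chromosome 15 (77760585 to 77842175) and Myh14 on chromosome 7 (44605803 to 44670843). The 250 bases before the transcription start of the 4 adult limb chains are shown because these 4 genes carry nearly all heavy chain RNA in both muscles. The sequences are those of RefSeq on GRCm38.p6, 5′ to 3′ on the strand of the gene, with all 10 members matched by symbol, at chr11:67237562-67237811 (plus) for Myh4, chr11:67199852-67200101 (plus) for Myh1, chr11:67170777-67171026 (plus) for Myh2 and chr14:54994550-54994799 (minus) for Myh7. In the first 3 the capitals mark a run of 20 bases that Myh4, Myh1 and Myh2 share, and in Myh7 they mark its 2 E-boxes.
Myh4: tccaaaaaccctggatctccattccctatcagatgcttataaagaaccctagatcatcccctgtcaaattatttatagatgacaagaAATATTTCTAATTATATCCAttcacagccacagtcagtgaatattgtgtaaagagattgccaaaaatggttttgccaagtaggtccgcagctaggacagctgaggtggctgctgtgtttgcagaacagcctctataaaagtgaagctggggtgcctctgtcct
Myh1: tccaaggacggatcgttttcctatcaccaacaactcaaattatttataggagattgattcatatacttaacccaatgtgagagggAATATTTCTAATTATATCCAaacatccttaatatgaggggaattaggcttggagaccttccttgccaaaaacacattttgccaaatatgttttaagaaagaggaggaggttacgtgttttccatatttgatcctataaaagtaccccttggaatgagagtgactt
Myh2: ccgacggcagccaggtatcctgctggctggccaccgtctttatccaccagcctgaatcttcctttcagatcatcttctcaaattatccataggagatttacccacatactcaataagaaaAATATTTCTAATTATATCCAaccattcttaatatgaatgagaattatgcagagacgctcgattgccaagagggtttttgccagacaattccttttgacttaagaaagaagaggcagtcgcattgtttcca
Myh7: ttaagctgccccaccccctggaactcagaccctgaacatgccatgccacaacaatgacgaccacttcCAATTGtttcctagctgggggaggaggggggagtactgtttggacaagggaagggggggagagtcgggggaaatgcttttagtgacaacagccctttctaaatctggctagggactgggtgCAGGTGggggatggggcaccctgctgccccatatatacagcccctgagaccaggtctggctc

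The shared run starts 163 bases before the start of Myh4, 165 before that of Myh1 and 130 before that of Myh2, and among 32851 mouse promoter windows of this length 3 hold it, those of the 3 fast genes. Myh1 also shares a run of 22 bases with Myh8, its neighbour but one in the cluster. The promoters of Myh7, Myh6, Myh7b, Myh9 and Myh14, the members outside that cluster, share no run above 10 bases with any other member. TATAAA, searched on both strands, was found in the windows of Myh4, Myh1, Myh3, Myh8 and Myh9 and in 12.4% of all windows. The E-box, the site of MyoD family factors (CANNTG, which reads the same on both strands), was present in all members but Myh1 and Myh2 and in 66.2% of all windows. The MEF2 site was found in Myh4, Myh1 and Myh8 and in 2.92% of windows, each time over a TATAAA of the minus strand, the CArG box in Myh4 and in 1.47% of windows, and the MCAT element CATTCC in Myh4, Myh1 and Myh6 and in 12.6% of windows. The fast promoters were low in G and C, at 42% for Myh4, 36% for Myh1 and 41.2% for Myh2, against 57.2% for Myh7 and a median of 52.4% over all windows. These matches describe letters in a window and not bound sites.

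The sequences of the genes themselves are alike, which bears on how their reads can be told apart. The authors counted reads with a unique alignment. Of all 50-base windows in its transcript, Myh1 shares 31.5% exactly with the transcript of another gene, Myh2 28.9%, Myh7 28.7%, Myh6 23%, Myh8 21.4% and Myh4 18.9%, while Myh3 shares 4.81%, Myh9 1.12% and Myh7b and Myh14 none. Levels of Myh6 beside an abundant Myh7, and of Myh8 beside an abundant Myh2, Myh1 or Myh4, are therefore uncertain. Exons of antisense genes overlap those of Myh7 (Gm31251, Mhrt and Gm29015), Myh1 (Myhas), Myh2 (9430073C21Rik), Myh6 (Gm49130) and Myh14 (2310016G11Rik), the largest overlap being 523 bases in Myh7, and whether the counting used strand is not given in the sources used here.

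In EDL muscles, Myh4 was the most abundant heavy chain in all 12 libraries, with a lowest level of 2695 FPKM, a median of 6607 and a highest of 7905 (mean 6063 ± 1519, SD, n = 12). Myh1 followed with 713 to 1886 FPKM (mean 1195 ± 329) and Myh2 with 180 to 396 FPKM (mean 299 ± 72.5). The slow chain Myh7 ranged from 4.82 to 88.6 FPKM around a median of 33.8. These 4 levels were ordered in the same way in every EDL library, and no range overlapped the next. The other 6 members had lower means, and Myh7 was above Myh9, the next of them, in 9 of 12 libraries. Myh9 had a mean of 12.3 FPKM, Myh14 of 7.62, Myh7b of 2.77, Myh6 of 1.95, Myh3 of 1.75 and Myh8 of 1.48. Among these only Myh14 and Myh7b were neighbours whose ranges did not overlap. Myh6 was above Myh3 in 6 of 12 libraries, so that these levels cannot be ordered.

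In SOL muscles, Myh7 led with 1848 to 3700 FPKM around a median of 3301 (mean 3153 ± 599, n = 12), and Myh2, the fast oxidative chain, came second with 1568 to 3102 FPKM (mean 2211 ± 484). Myh7 was above Myh2 in 10 of 12 libraries, and the exceptions were both Cre- libraries of 2.5 days. Myh1 stood at 535 to 1357 FPKM (mean 846 ± 270), below Myh2 in all 12 libraries. Relative to its level, Myh4 spanned the widest range of any member in SOL, from 21.1 to 521 FPKM around a median of 110 (mean 160 ± 145). Of the low members, Myh7b was at 37.6 FPKM on average, above Myh14 (19.2 FPKM) in all 12 libraries. Then came Myh9 with 15.5 FPKM, Myh3 with 10.8 (4.20 to 32.3), Myh6 with 6.14 and Myh8 with 4.76 (1.33 to 15.8), and the ranges of these neighbours overlapped.

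**Figure D1:**
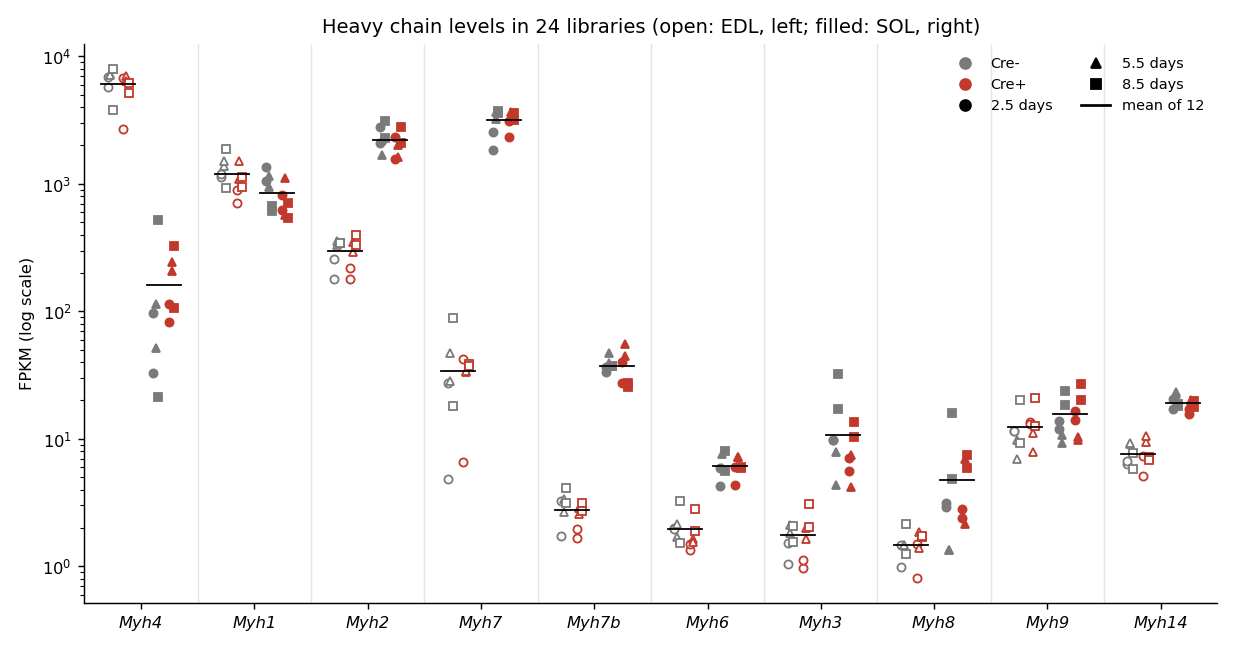
FPKM of the 10 heavy chains on a log scale in each of the 24 libraries, EDL as open symbols on the left and SOL as filled symbols on the right of each gene, grey for Cre- and red for Cre+, with the marker giving the days of Dox and the bar the mean of 12. Myh4 and Myh7 change places between the muscles, and the red and grey symbols of one muscle lie over each other for nearly every gene.

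Set over the muscles, the mean of Myh4 was 38.0 times higher in EDL than in SOL and that of Myh7 93.1 times higher in SOL than in EDL. Myh7b was 13.6 times, Myh2 7.40 times, Myh3 6.19 times, Myh6 3.16 times and Myh14 2.52 times higher in SOL, each with no overlap between the 12 EDL and the 12 SOL libraries. With Myh4 these are 7 of the 10 members, where 6.84% of all genes did not overlap. Myh8 was 3.21 times higher in SOL and Myh9 1.26 times, with overlapping ranges. Myh1 was the member with the least difference between a fast and a slow muscle among the adult chains, 1.41 times higher in EDL, also with overlap.

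The test between muscles was made within each genotype and day. With edgeR's quasi-likelihood test and Benjamini-Hochberg adjusted p-values over all genes, called at an adjusted p under 0.05 and a log2 fold change beyond 0.5 in either direction, 7 of the 10 members differed between Cre- EDL and Cre- SOL at 2.5 days (16% of all genes were called), 7 at 5.5 days (19.8%) and 9 at 8.5 days (18.2%). In Cre+ mice 7 members were called at 2.5 days (28.4% of all genes), 7 at 5.5 days (17.2%) and 8 at 8.5 days (18.2%). The same 7 genes were called in all 6 comparisons. Myh4 was the one higher in EDL, by a log2 fold change of 4.47 (SE 1.16, adjusted p = 0.0171, Cre- at 8.5 days) to 6.68 (SE 1.29, adjusted p = 0.00324, Cre- at 2.5 days). Myh2, Myh3, Myh6, Myh7, Myh7b and Myh14 were higher in SOL.

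Myh7 differed between the muscles by -6.01 (SE 1.02, adjusted p = 0.00138, Cre- at 8.5 days) to -7.02 (SE 1.07, adjusted p = 0.000577, Cre- at 2.5 days) on the log2 scale, where a negative value is lower in EDL. These were the largest differences of the members except in Cre- mice at 5.5 days, where Myh4 was at 6.56 and Myh7 at -6.41. For Myh7b the range was -3.24 to -4.29, for Myh2 -2.38 to -3.38, for Myh3 -1.53 to -3.67, for Myh6 -1.26 to -2.13 and for Myh14 -0.97 to -1.47. Myh8 was called lower in EDL at 8.5 days, with -2.56 in Cre- (adjusted p = 0.00283) and -2.02 in Cre+ mice (adjusted p = 0.00965) on the log2 scale. At 5.5 days it was not called in Cre+ mice (-1.45), but was by DESeq2 (adjusted p = 0.0458), with library size alone (adjusted p = 0.0438) and without the filter on low counts (adjusted p = 0.0362), and at 2.5 days it was called without that filter (adjusted p = 0.0354). Myh1 was called in 1 of the 6 comparisons, Cre- at 8.5 days, with a log2 fold change of 1.21 (SE 0.30, adjusted p = 0.0132). Without replicate 2 of Cre- EDL of that day the value was 0.60 (adjusted p = 0.119), and without replicate 2 of Cre- SOL it was 1.12 (adjusted p = 0.0868). Myh9 was called in none of the 6, with differences of -0.05 to -0.56 and unadjusted p values of 0.0801 to 0.857. It was called at 8.5 days in Cre+ mice with EDL and SOL of one number paired as one mouse (-0.58, adjusted p = 0.0391) and in Cre- mice without replicate 2 of EDL (-1.11, adjusted p = 0.0102).

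Several calls between the muscles were lost when a single library was left out, which also leaves fewer libraries to the test. Myh4 in Cre+ mice lost its call without replicate 2 of Cre+ SOL at 2.5 days (log2 fold change 5.33 against 5.54 with it, adjusted p = 0.0518) and without replicate 1 of Cre+ SOL at 8.5 days (4.02 against 4.62, adjusted p = 0.116). Without replicate 2 of Cre- SOL at 5.5 days Myh3 missed the call (-1.01 against -1.53, adjusted p = 0.0649). Myh6 did so in 3 leave-outs at 2.5 days and 2 at 8.5 days in Cre- mice and in 1 at 8.5 days in Cre+ mice, with log2 fold changes of -1.28 to -0.96, beside -1.42 to -1.26 with all libraries, and adjusted p values of 0.0662 to 0.133. Without either EDL library or without replicate 1 of SOL, Myh8 in Cre+ mice at 8.5 days was no longer called (adjusted p of 0.0502 to 0.0756), at log2 fold changes of -2.08 to -1.88 beside -2.02 with all libraries. Myh1 in Cre+ mice at 5.5 days was called without replicate 2 of SOL (1.23, adjusted p = 0.0361), and Myh8 in Cre+ mice was called at 2.5 days without replicate 1 of EDL (-1.79, adjusted p = 0.0415) and at 5.5 days without replicate 2 of SOL (-2.06, adjusted p = 0.00952). Each of these differences kept its direction. With library size alone the part of all calls higher in EDL went from 50.9% to 38.4% in Cre- mice at 2.5 days, from 48.6% to 35.7% at 5.5 days and from 47.6% to 35.4% at 8.5 days, and the median of all genes at 5.5 days moved to -0.13. In Cre+ mice it went from 55% to 63.3%, from 47.5% to 43.8% and from 50.2% to 57.6% at these days.

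The share of each adult limb chain in the summed FPKM of Myh4, Myh1, Myh2 and Myh7 describes the fiber type make-up of the RNA and does not move with the scaling of a library. In EDL, Myh4 took 79.4% ± 4.3, Myh1 16.02% ± 3.4, Myh2 4.09% ± 1.19 and Myh7 0.521% ± 0.465 (SD, n = 12). In SOL, Myh7 took 49.4% ± 7.0, Myh2 34.6% ± 5.1, Myh1 13.6% ± 5.1 and Myh4 2.40% ± 1.87. EDL libraries carried mainly the IIb chain, and SOL libraries the slow and IIa chains, as their labels as fast and slow muscle say. The share of Myh4 in Cre- EDL muscles of 2.5 and 8.5 days was 78.7% ± 4.0 and in Cre+ EDL muscles 79.5% ± 7.0 (n = 4 each). The share of Myh7 in SOL muscles of these days was 43.9% ± 9.1 in Cre- and 50.4% ± 4.7 in Cre+ mice. Both differences were smaller than the larger of the 2 SDs.

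**Figure D2:**
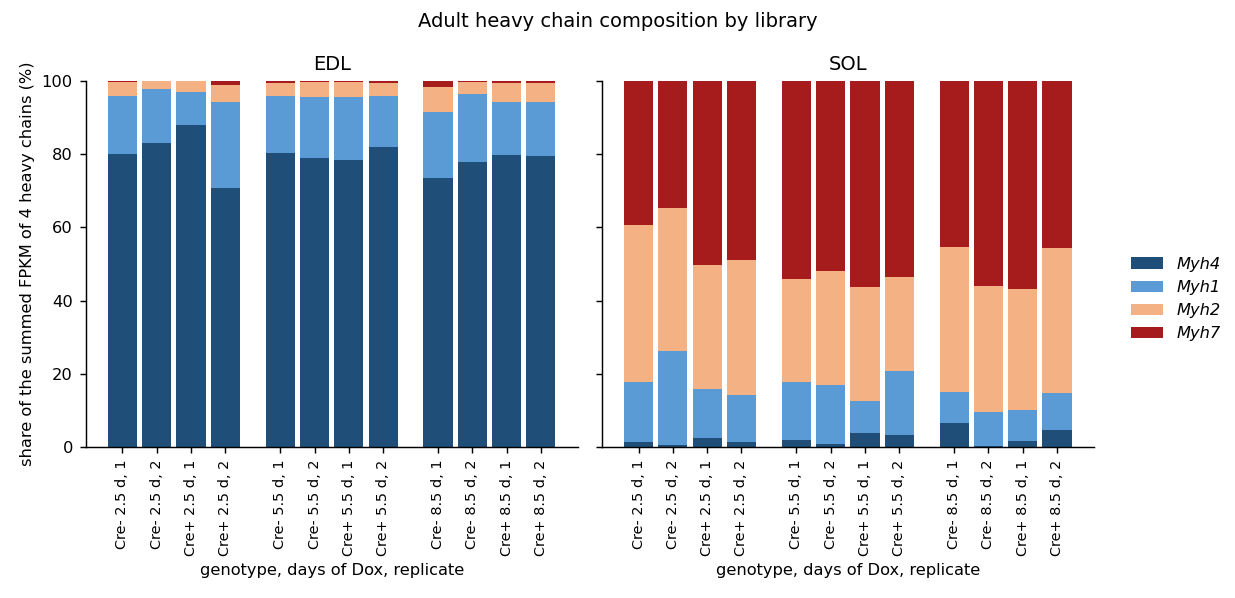
Share of Myh4, Myh1, Myh2 and Myh7 in the summed FPKM of these 4 genes, in percent, as one stacked bar per library, EDL on the left and SOL on the right. Myh4 holds 70.8% to 87.9% of every EDL bar, and Myh7 with Myh2 holds most of every SOL bar.

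Within a day the make-up showed where the replicates parted. At 2.5 days the Cre+ EDL libraries were the extremes of all 12 for Myh4, with a share of 87.9% in replicate 1 and 70.8% in replicate 2. Replicate 2 also had the highest share of Myh1 (23.4% against 9.21% in replicate 1), and its summed level of the 4 chains was the lowest of all EDL libraries, 3809 FPKM. The sum of the OSKM transcripts was 590 CPM in replicate 2 and 176 CPM in replicate 1, whose part in this was not tested. In SOL at 2.5 days, Myh7 took 50.3% and 48.9% in Cre+ and 39.4% and 34.8% in Cre- libraries, and Myh1 took 13.5% and 12.9% against 16.2% and 25.5%. Myh2 took 33.7% and 36.8% in Cre+ and 42.9% and 39.1% in Cre- libraries. Cre+ was higher for Myh7 and lower for Myh1 and Myh2 with no overlap, a pattern that 2 libraries against 2 cannot test below an exact permutation p of 0.333. At 8.5 days the SOL shares of Myh7 overlapped, with 56.8% and 45.7% in Cre+ and 45.4% and 55.9% in Cre- libraries.

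The minor sarcomeric chains stayed minor in all libraries. Over the summed FPKM of the 8 sarcomeric members, Myh3 made up 0.0125% to 0.0396% in EDL and 0.0658% to 0.482% in SOL, Myh8 0.0119% to 0.0267% in EDL and 0.0188% to 0.199% in SOL, Myh6 0.0173% to 0.0390% in EDL and 0.0793% to 0.112% in SOL, and Myh7b 0.0210% to 0.0601% in EDL and 0.361% to 0.841% in SOL. The embryonic and the perinatal chain were each below 1% of heavy chain RNA in every Cre+ and Cre- muscle.

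Cre+ muscles were compared with Cre- muscles of the same day to ask how heavy chain RNA stood under OSKM. In EDL at 2.5 days 2 of the 10 members were called, both lower in Cre+, where 24% of all genes were called. Myh1, the IIx chain, was at 713 and 892 FPKM in Cre+ and at 1124 and 1202 FPKM in Cre- libraries. The Cre+ libraries were both below the Cre- libraries. Its log2 fold change was -0.87 (SE 0.30, adjusted p = 0.046). Myh7b, the slow-type chain of chromosome 2, was at 1.68 and 1.98 FPKM in Cre+ and at 3.25 and 1.73 FPKM in Cre- libraries, with groups that overlap by FPKM and a log2 fold change of -0.78 (SE 0.25, adjusted p = 0.0349). It was a low transcript in this muscle.

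Neither call was firm. Myh1 was called in 7 and Myh7b in 7 of 15 alternative fits, with log2 fold changes of -0.99 to -0.54 for Myh1 and -1.14 to -0.28 for Myh7b. Leaving out any one of the 4 libraries ended the call of Myh1 (adjusted p of 0.101 to 0.163), and leaving out any but replicate 2 of Cre- ended that of Myh7b. With the replicate number as a block the adjusted p was 0.0903 for Myh1 and 0.0897 for Myh7b.

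The scaling matters for these values. The TMM normalization of edgeR gave factors of 0.910 and 0.880 to the Cre- and 1.09 and 1.16 to the Cre+ EDL libraries of 2.5 days, and dividing by library size alone moved the median change over all genes from -0.05 to 0.28 and the share of calls that were higher in Cre+ from 57.5% to 87.3%. On that scale Myh1 was at -0.54 (adjusted p = 0.169) and Myh7b at -0.45 (adjusted p = 0.201). A change of scaling moves all genes by nearly the same amount, so the place of a gene relative to the median of all genes hardly moves with it. Both genes were below that median on either scale, which is therefore no check of the calls. The median of the 10 members was -0.54 with TMM and -0.21 with library size alone, below that of all genes on each, for the same reason no check. On library size alone the median of all genes was 0.16 in EDL at 8.5 days, 0.13 in EDL at 5.5 days and 0.18 in SOL at 2.5 days. The share of calls higher in Cre+ went from 54% to 78.3% in EDL at 8.5 days and from 85.1% to 95.3% at 5.5 days. The median of the members in EDL at 8.5 days went from -0.19 to 0.0028, and its place below that of all genes again hardly depends on the scaling.

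The other 8 members were not called in EDL at 2.5 days. Myh4 was at 6805 and 2695 FPKM in Cre+ and at 5707 and 6872 FPKM in Cre- libraries, which overlap on this scale, with a log2 fold change of -0.72 (SE 1.01, adjusted p = 0.635). Replicate 2 of Cre+ was the lowest EDL library for Myh4. Myh7 was at 6.52 and 41.9 FPKM in Cre+ and at 27.5 and 4.82 FPKM in Cre- libraries (log2 fold change 0.24, SE 0.82, adjusted p = 0.857), a spread within each genotype that covers the difference. Myh6 was at 1.34 and 1.49 FPKM against 1.98 and 1.98 FPKM, without overlap (log2 fold change -0.82, SE 0.33, adjusted p = 0.0816), and DESeq2 called it on the same libraries (adjusted p = 0.0481). Myh2 (-0.46, adjusted p = 0.259), Myh3 (-0.62, adjusted p = 0.136), Myh8 (-0.39, adjusted p = 0.575) and Myh14 (-0.38, adjusted p = 0.163) were below 0 too, and Myh14 was called without replicate 1 of Cre+ (-0.73, adjusted p = 0.0156). The non-muscle chain Myh9 was higher in Cre+ by FPKM, at 13.5 and 13.0 against 11.5 and 11.6, and at -0.13 after TMM (adjusted p = 0.782). By FPKM the Cre+ and Cre- libraries did not overlap for 3 members, Myh1 and Myh6, lower in Cre+, and Myh9, higher, where 67.5% of all genes did not overlap. After TMM, the scale of the test, 8 members did not overlap and all 8 were lower in Cre+ (Myh1, Myh2, Myh3, Myh4, Myh6, Myh7b, Myh9 and Myh14), where 65.2% of all genes did not overlap and 34.5% were lower without overlap. Myh9 thus changed direction with the scaling.

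Other genes of fast fibers were lower at the same time. Of all 15372 genes tested there, 24% were called, 2118 higher and 1566 lower. Of 8 fast fiber genes other than myosins (Tnnt3, Tnni2, Tnnc2, Atp2a1, Pvalb, Actn3, Casq1, Pfkm), 6 were called lower in Cre+ EDL at 2.5 days, with a median log2 fold change of -1.03 and a summed level of 74121 to 83931 CPM in Cre+ against 106250 to 114400 CPM in Cre- libraries. Of 8 slow fiber genes none was called, with a sum of 412 to 794 CPM in Cre+ and 277 to 620 CPM in Cre- libraries. Endothelial markers were called lower for 4 of 5 genes (255 to 268 CPM against 292 to 338 CPM) and smooth muscle and pericyte markers for 3 of 6 (550 to 583 CPM against 633 to 659 CPM), with no marker of either list at 0. The part of these cells in the heavy chain values was not tested.

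In EDL at 8.5 days none of the 10 members was called by edgeR or by DESeq2, and none had an unadjusted p under 0.05, where 14.1% of all genes were called. Myh1 was at 1139 and 951 FPKM in Cre+ and at 930 and 1886 FPKM in Cre- libraries, which overlap (log2 fold change -0.62, SE 0.30, adjusted p = 0.186). Without replicate 1 of Cre- it was called lower (-1.05, adjusted p = 0.0296). That library stood apart, with the lowest Myh4 of the Cre- EDL libraries (3804 against 7905 FPKM in its replicate), the highest Myh7 of all EDL libraries (88.6 against 18.2 FPKM) and the highest sum of slow fiber genes in EDL (1340 CPM against 484 CPM). Myh4 was at 6167 and 5123 FPKM and Myh7 at 38.5 and 37.4 FPKM in the Cre+ libraries of that day, between the Cre- values. Of the fast fiber genes without myosins 2 of 8 were called lower at this time.

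At 5.5 days no member was called in EDL by edgeR or DESeq2 and none had an unadjusted p under 0.05, with 0.304% of all genes called. The 10 log2 fold changes lay between -0.41 (Myh6) and 0.05 (Myh9). Myh4 was at 6952 and 6409 FPKM in Cre+ and at 7212 and 7107 FPKM in Cre- libraries, the closest replicates of Myh4 of any day.

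In SOL muscles no member was called by edgeR at any time, with 0.384% of all genes called at 2.5 days, 0% at 5.5 days and 0.631% at 8.5 days. At 2.5 days 2 members had an unadjusted p under 0.05. Myh1 was at 626 and 819 FPKM in Cre+ and at 1056 and 1357 FPKM in Cre- libraries, without overlap, and its log2 fold change of -0.89 (SE 0.30, adjusted p = 0.221) was near that of EDL at the same time. Myh3 was at 5.55 and 7.13 FPKM against 9.70 and 9.81 FPKM (-0.78, SE 0.27, adjusted p = 0.24). DESeq2 called Myh1 on the same libraries (adjusted p = 0.0336) and both genes when fitted on the 4 libraries alone. Myh7 was at 2339 and 3097 FPKM in Cre+ and at 2573 and 1848 FPKM in Cre- libraries (log2 fold change 0.14, SE 0.82) and Myh2 at 1568 and 2332 FPKM against 2802 and 2076 FPKM (-0.48, SE 0.29), both with overlap.

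In SOL at 8.5 days Myh3, the embryonic chain, was at 10.4 and 13.6 FPKM in Cre+ and at 17.1 and 32.3 FPKM in Cre- libraries. All 4 were above the SOL libraries of 5.5 days, and the Cre- libraries were the highest of all 12. The log2 fold change was -1.06 (SE 0.27, unadjusted p = 0.00189 and adjusted p = 0.181 in edgeR), DESeq2 called it on the same libraries (adjusted p = 0.0222), and edgeR did without replicate 1 of Cre- (-1.41, adjusted p = 0.029). The perinatal chain Myh8 was at 7.43 and 5.94 FPKM in Cre+ and at 15.8 and 4.86 FPKM in Cre- libraries (-0.70, SE 0.45, adjusted p = 0.912). Myh7b was at 27.4 and 25.4 FPKM in Cre+ and at 37.2 and 37.4 FPKM in Cre- libraries, without overlap (-0.53, SE 0.24, unadjusted p = 0.0434 and adjusted p = 0.723), and DESeq2 on the 4 libraries alone called it (adjusted p = 0.000369).

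Myh4 in SOL at 8.5 days showed how far replicates can part. It was at 106 and 326 FPKM in Cre+ and at 521 and 21.1 FPKM in Cre- libraries, a 24.7-fold gap between the Cre- replicates. Its log2 fold change was -0.39 (SE 1.01, adjusted p = 0.999) and ran from -1.47 to 3.40 when single libraries were left out or the fit was changed. Replicate 1 of Cre- had the highest Myh4 and Myh8 of the SOL libraries, and replicate 2 had the most liver transcripts. All 6 liver transcripts were called lower in Cre+ SOL at this time (0.631% of all genes were called) and 4 of 6 in EDL (14.1%). Their part in the heavy chain values was not tested.

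At 5.5 days in SOL, where 597 genes had an unadjusted p under 0.05 and DESeq2 called 0 genes as well, the members had their largest estimates of any comparison of the genotypes. Myh8 was at 6.95 and 2.14 FPKM in Cre+ and at 1.33 and 1.34 FPKM in Cre- libraries (log2 fold change 1.70, SE 0.51, unadjusted p = 0.00414, adjusted p = 1). Myh4 was at 242 and 206 FPKM against 113 and 51.5 FPKM (1.39, SE 0.92, adjusted p = 1). In both genes the Cre+ libraries were above the Cre- libraries, which 2 libraries against 2 cannot test below an exact permutation p of 0.333. The share of all genes without overlap was not computed for any SOL comparison of the genotypes. Summed OSKM transcripts were at 24.2 to 44.8 CPM in these Cre+ libraries and at 46.8 to 48.0 CPM in the Cre- libraries. The value of Myh8 was 0.62 without replicate 1 of Cre+ and 2.31 without replicate 2.

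**Figure D3:**
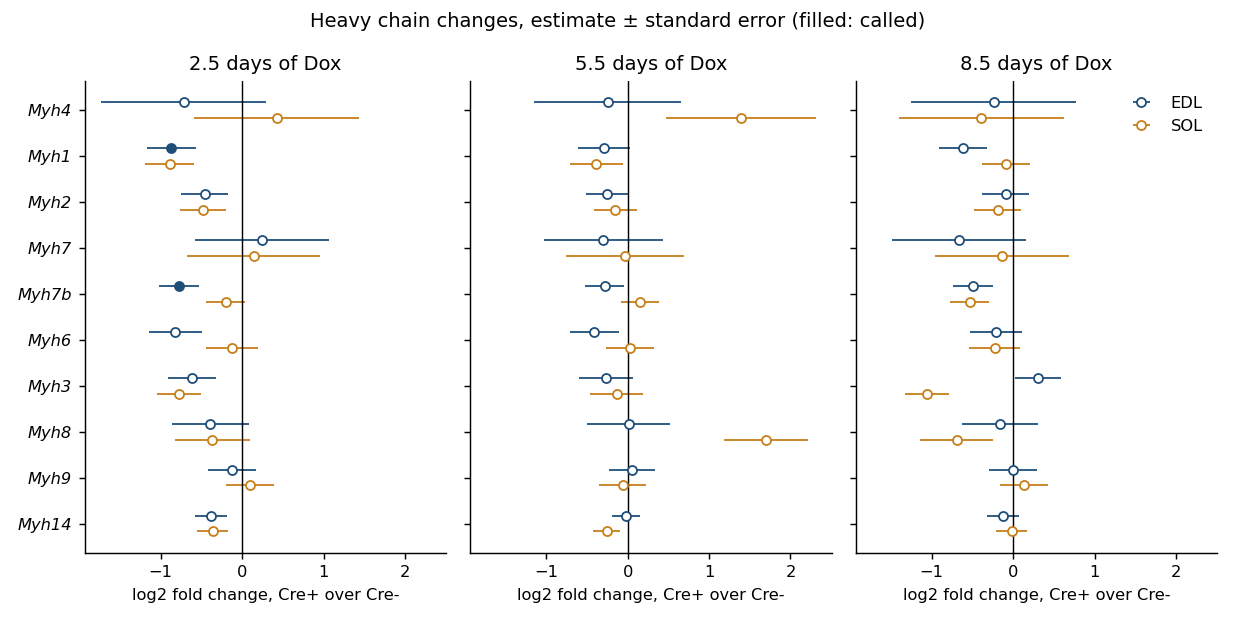
Log2 fold change of Cre+ over Cre- for each heavy chain, EDL in blue and SOL in orange, at 2.5, 5.5 and 8.5 days, with bars of 1 standard error and filled symbols for called changes. The filled symbols are those of Myh1 and Myh7b in EDL at 2.5 days, and the bars of Myh4 and Myh7 are the widest.

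Whether a change differed between the muscles or the days was tested by interaction terms. No member was called for a difference between muscles in the change at 2.5 days (4.25% of all genes were called), 5.5 days (0.0129%) or 8.5 days (0.592%). At 8.5 days Myh3 came nearest, with a change 1.36 higher on the log2 scale in EDL than in SOL (SE 0.39, unadjusted p = 0.00401, adjusted p = 0.186), and DESeq2 called it (1.36, adjusted p = 0.033). Between 8.5 and 2.5 days no member and 0% of genes were called in EDL or in SOL, where edgeR gave 1469 and 403 genes an unadjusted p under 0.05 and DESeq2 called 141 and 9 genes, no member among them. One member, Myh3 in EDL, had an unadjusted p under 0.05 there (0.92, SE 0.40, adjusted p = 0.492). The calls of Myh1 and Myh7b in EDL at 2.5 days were not shown to be particular to that muscle or that day.

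The members differed in how much replicates of a group varied. The higher of a pair of replicates was above the lower by a median of 1.07 times for Myh14 in SOL and 1.08 times in EDL. For the chains of the muscle's own main fiber type the median was 1.20 times for Myh4 in EDL and 1.13 times for Myh7 in SOL. The chain foreign to the muscle varied most, with a median of 3.26 times and up to 6.43 times for Myh7 in EDL and 2.58 times and up to 24.7 times for Myh4 in SOL. The standard errors of their changes, 0.82 for Myh7 and 1.01 for Myh4 at 2.5 days in EDL, were the largest of the members. The fit gave each gene a single dispersion over both muscles. The standard errors and p-values of Myh4 in EDL and of Myh7 in SOL (0.82 at 2.5 days as well) thus include the spread of the other muscle.

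Genes with a profile like that of a member over the 24 libraries were sought by the root mean square difference of centred log2(FPKM + 1) values, over the 11351 other genes whose mean reached 1 FPKM. The nearest to Myh4 were Mybpc2 (fast myosin binding protein C, 0.90), Pvalb (parvalbumin, 1.02) and Actn3 (alpha-actinin 3, 1.09). The nearest to Myh7 were Tnni1 and Tnnc1 (slow troponins, 0.34 and 0.40) and Myl3 (slow light chain, 0.44). Myh2 was nearest to Smtnl1 (0.33), Hspb7 (0.36) and Actn2 (0.37), and Myh7b to Pcp4l1 (0.35), Ldhb (the heart-type lactate dehydrogenase subunit, 0.36) and Myoz2 (calsarcin of slow fibers, 0.39). Myh1 varied little over the libraries, with an SD of 0.49 on this scale against 3.1 for Myh4 and 3.6 for Myh7. It was nearest to Rrm1 (0.30), Oat (0.31) and Camk2g (0.32), distances that are large beside its own SD. The points share libraries and muscles, so these distances are a description.

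The other class II heavy chains, Myh10 (non-muscle IIB), Myh11 (smooth muscle), Myh13 (extraocular muscle) and Myh15, gave 0 of 4 calls between Cre+ and Cre- in either muscle at any day. The mean level of Myh10 over 2.5 and 8.5 days was 4.76 FPKM in EDL and 22.5 FPKM in SOL of Cre- mice, and it was called higher in SOL in all 6 comparisons of the muscles, with EDL against SOL at -1.62 to -2.67 on the log2 scale. Myh15 was at or under 0.187 FPKM in every group mean.

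Partners of the heavy chains were called in EDL at 2.5 and 8.5 days. None of these lists gave a call in SOL or at 5.5 days. The difference between the muscles in the change was tested over all genes, and its result for these lists is not reported here. The background is the 24% of all genes called in EDL at 2.5 days (2118 higher and 1566 lower of 15372) and the 14.1% called at 8.5 days (1173 higher and 999 lower). Of 4 fast light chains and thick filament partners 1 was called at 2.5 days, a share near that of all genes. It was Mylk2, the skeletal myosin light chain kinase (log2 fold change -1.14, SE 0.29, adjusted p = 0.0105). Of 5 slow partners 2 were lower, Mylk4 (-1.78, SE 0.35, adjusted p = 0.00252) and Mybpc1 (-0.71, SE 0.20, adjusted p = 0.0188). Mylk4 was more abundant in Cre- EDL (288 FPKM) than in Cre- SOL (41.4 FPKM), so the list's name does not hold for it here. Of 5 non-muscle and smooth muscle light chain genes, Myl9 and Mylk were lower (-0.84, adjusted p = 0.0369, and -0.65, adjusted p = 0.00622), and neither of the 2 developmental light chains tested, of 3 listed, was called. Of these 5 genes only Mylk4 stayed called whichever single library of the comparison was left out.

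Of 13 chaperones and assembly factors of the thick filament and its M-band, 2 rose and 7 fell in Cre+ EDL at 2.5 days, with a median log2 fold change of -0.74 against -0.05 over all genes, of which 24% were called. Myom3, an M-band protein of slow and intermediate fibers, rose most (2.49, SE 0.26, adjusted p = 4.77e-05), from 9.57 FPKM in Cre- to 53.0 FPKM in Cre+ EDL over 2.5 and 8.5 days, beside 133.8 FPKM in Cre- SOL. It was called in all 15 alternatives. Myom2, the M-band protein of fast fibers (-1.24, SE 0.29, adjusted p = 0.00702), and Unc45b, the chaperone that folds the myosin motor domain in muscle (-1.22, SE 0.26, adjusted p = 0.00392), fell, and Unc45b was called in all 15 alternatives while Myom2 lost its call without replicate 2 of Cre+ (adjusted p = 0.0673) or of Cre- (0.0502). Hsp90aa1, a chaperone that works with Unc45b, rose (0.95, adjusted p = 0.0225) but was at 0.45 (adjusted p = 0.322) without replicate 2 of Cre+, and of the 4 leave-outs it kept its call in that of replicate 1 of Cre+. At 8.5 days 1 rose and 1 fell, Myom3 (2.06, SE 0.26, adjusted p = 0.000259) and Myom1 (-0.79, SE 0.18, adjusted p = 0.0114), which was not called without replicate 1 of Cre+ (adjusted p = 0.0966) or replicate 2 of Cre- (0.0516).

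Of 24 regulators of fiber type, 4 rose and 8 fell in EDL at 2.5 days, with a median log2 fold change of -0.39, where 24% of all genes were called. Rcan1, a target and inhibitor of calcineurin that serves as a readout of its activity (1.45, SE 0.17, adjusted p = 9.90e-05), and Tead4, a factor of the MCAT element (1.39, SE 0.27, adjusted p = 0.00206), rose most. Prox1, a factor of slow fibers, rose as well (1.26, adjusted p = 0.0223) from a mean of 0.219 FPKM, and was not called without replicate 2 of Cre+ (0.98, adjusted p = 0.169) or replicate 1 of Cre- (0.92, adjusted p = 0.176). Among those that fell were Tbx15, a factor of glycolytic fibers (-0.99, SE 0.20, adjusted p = 0.00275), and Ppargc1a, the coactivator of oxidative metabolism and slow genes (-0.98, SE 0.19, adjusted p = 0.00232). The genes that fell included factors of fast and of slow fibers. Without replicate 2 of Cre+, the EDL library with the lowest Myh4, 6 of the 12 regulators and 5 of the 9 chaperones and assembly factors stayed called.

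At 8.5 days 2 regulators rose and 8 fell in EDL, with a median log2 fold change of -0.54 against -0.02 over all genes, of which 14.1% were called. Ppargc1a (-1.07, SE 0.19, adjusted p = 0.003), Six4, a factor of fast fibers (-0.95, SE 0.17, adjusted p = 0.00287), and Vgll2, a cofactor of the TEAD factors (-0.91, SE 0.21, adjusted p = 0.0108), had the largest changes. Mef2d (0.82, adjusted p = 0.00156) and Rcan1 (0.60, adjusted p = 0.028) were the ones that rose. Rcan1 lost its call without any one of the 4 libraries (adjusted p of 0.0767 to 0.136), Vgll2 without replicate 1 of Cre+ (0.131) or replicate 2 of Cre- (0.0602), and 4 to 7 of the 10 calls stayed when single libraries were left out. In the same libraries none of the 10 heavy chains was called.

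**Figure D4:**
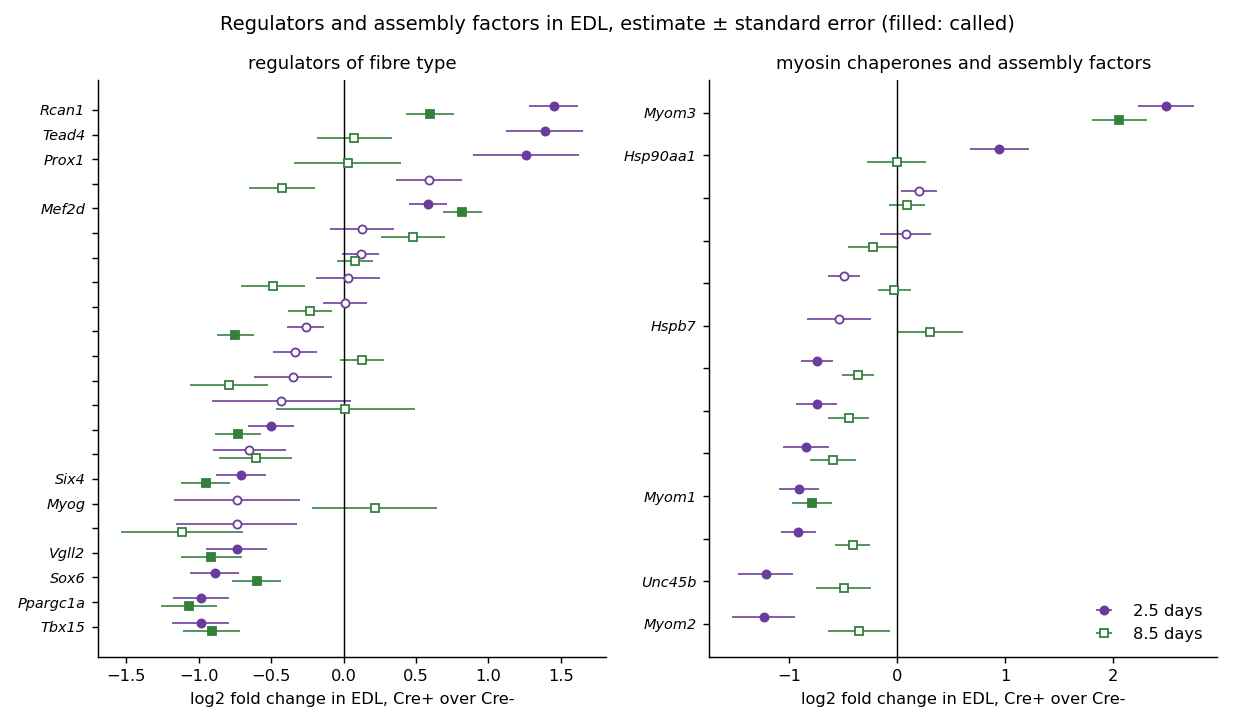
Log2 fold change of Cre+ over Cre- in EDL for 22 of the 24 regulators of fiber type (left) and 13 chaperones and assembly factors (right), at 2.5 days (purple circles) and 8.5 days (green squares), with bars of 1 standard error and filled symbols for called changes. Genes named in the text are labelled on the axis. Myom3 and Rcan1 stand highest at 2.5 days, and most filled symbols lie below 0.

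Of 10 genes of developing or denervated muscle (Chrna1, Chrng, Ncam1, Myog and others), 2 were called higher and 3 lower in EDL at 2.5 days, 1 higher and 1 lower at 8.5 days, and none in SOL, with a summed level of 272 to 281 CPM in Cre+ and 304 to 475 CPM in Cre- EDL libraries at 2.5 days. The genes of this list went both ways. Over 2.5 and 8.5 days in EDL, mean Actc1 was 203 FPKM in Cre- and 32.9 in Cre+, and mean Ncam1 was 1.95 in Cre- and 17.8 in Cre+. Satellite cell markers were called higher for 1 of 6 in EDL at 2.5 and at 8.5 days. Over all genes 24% were called in EDL at 2.5 days and 14.1% at 8.5 days, so that the counts of 8.5 days and those of satellite cells lie near the background. Of 5 cardiac genes the sum was 3.04 to 8.12 CPM in EDL and 103 to 368 CPM in SOL, with 1 or 2 of the 5 at 0 in most groups. The SOL sum was mostly that of Sln. In Cre- SOL over 2.5 and 8.5 days Sln had a mean of 282 FPKM, beside 1.59 for Tnni3, 0.0117 for Ryr2 and 0 for Nppa and Myl7.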

How the data were processed

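RNA of whole EDL and of whole SOL, from mice with and without Cre, was sequenced as stranded, polyA-selected single-end libraries. Per the labels and the study's methods, the authors aligned reads with STAR 2.5.3a to mm10 and counted uniquely aligned reads in RefSeq exons with HOMER, after FastQC 0.11.2. The deposited count table holds raw counts per gene, and whether counting used strand is not given in the sources used here. FPKM and CPM were computed from these counts with the total count per library (36088781 to 54679082), without TMM scaling.

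Cre+ was compared with Cre-, and EDL with SOL, by the quasi-likelihood test of edgeR 4.0.16 in R 4.3.3, with TMM normalization, filterByExpr (minimum count 10) and Benjamini-Hochberg adjustment over all genes. Calls needed an adjusted p under 0.05 and a log2 fold change beyond 0.5. The 16 libraries of 2.5 and 8.5 days shared one fit of 15372 genes, and the 5.5-day values came from a fit of all 24 libraries with 15478 genes. The common biological coefficient of variation was 0.174. The chi-square per gene between replicates was 26.4 to 146.6, where counting error alone gives 1, so no library was counted as a repeat of another. DESeq2 1.42.0 and other settings served as alternatives. Counts were also simulated with gene means taken over all 16 libraries of both muscles, and changes were added to the Cre+ EDL group of 2.5 days. Over 15176 genes, edgeR recovered 65 of 100 genes changed by a log2 fold change of 1 and 95 of 100 changed by 2. The changed genes were drawn at random, so these rates do not carry over to members with a wide replicate spread, such as Myh4 and Myh7.

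The members and lists were chosen with earlier results of these data known. The text names all members, up to 3 called genes per partner list with the largest changes in EDL (Hsp90aa1, Tbx15 and Ppargc1a at 2.5 days and Mef2d and Rcan1 at 8.5 days were named beyond this rule, after their values were seen, and some genes of the lists are not reported here by name), and the 3 genes nearest to 5 members by profile. The labels tie no EDL to a SOL library, but those of one number deviated together (correlations over genes of 0.126 to 0.501 in all 6 groups). Libraries of one number in Cre+ and Cre- did not (-0.232 to 0.0886). EDL and SOL of one number were paired only in an alternative fit, and the main tests between the muscles were unpaired. Where replicates are not separate animals, p-values measure only the spread between these samples. Promoters are those of RefSeq on GRCm38.p6, and shared windows were sought in the transcripts of GENCODE vM21.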

Additional observations from a re-analysis of the deposited data

How the results depend on the processing

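Of 248 counts of members called under an alternative, 233 stayed within 1.5 times the main count, and no change of a member reversed among those called. The count of 2 in EDL at 2.5 days became 0 with library size alone and with a threshold of 1 on the log2 fold change, 1 with all 24 libraries in one fit, and 0 to 1 when single libraries were left out. In EDL at 8.5 days the count of 0 ran from 0 to 1 in the leave-outs (Myh1 without replicate 1 of Cre-). In SOL at 2.5 days DESeq2 called 1 member when fitted to the same libraries and 2 when fitted to the 4 of the comparison. In SOL at 8.5 days it called 1 and 2, and the leave-outs gave 0 to 1 (Myh3 without replicate 1 of Cre-). For the difference between muscles at 8.5 days DESeq2 called 1, Myh3. The causes were not tested. Shares of the adult chains moved by less than the SD of their 4 libraries of 2.5 and 8.5 days under each of 96 alternatives. Most of these left out 1 of the 4 libraries, which cannot move a mean by that much, so they do not test the shares. Of 240 mean levels, 56 moved by more than the SD of their 2 replicates when the library size was rescaled by TMM or taken without the members.

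With the replicate number within muscle and day as a replicate block, 0 members were called in EDL at 2.5 days, where the libraries share only a number. With EDL and SOL of one number paired as one mouse, 9 members in place of 8 were called between the muscles in Cre+ mice at 8.5 days, Myh9 being the one gained, and no other call of a member changed. The limits of these data are 2 libraries per group, whole-muscle RNA and reads shared between alike genes. Depth was not the limit for the adult chains, whose replicates differed far beyond counting error.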
